A study of Mus musculus with 12 samples.

Results

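The 12 libraries form a complete 2-by-2 design, in which CT26 cells received neither agent, CX3CL1, IFN-γ, or both, so that for every gene the level under both agents can be set against the level that the single agents predict. The CT26 line derives from a colon carcinoma of the mouse. Each group had 3 replicate libraries, cells were treated in culture for 8 hours, and recombinant CX3CL1 was used at 2 µg/ml and IFN-γ at 100 ng/ml. The labels name IFN-γ alone as the second agent, whereas the study's text also names TNF-α, a cytokine that activates NF-kB, beside IFN-γ for a treatment given before CX3CL1. Whether TNF-α was present in the IFN-γ and combined cultures, and in which order the agents were given to them, is not settled by the sources used here, and a share of TNF-α in the values of NF-kB genes in these groups cannot be told apart from IFN-γ. The groups are called untreated, CX3CL1, IFN-γ and combined below, as labelled. No genotype was changed in any group, all groups share the 1 parent line, and the labels call the replicates biological without saying what was separate, so p-values measure the spread between these libraries, which may be technical. Of 23636 symbols measured, all 11878 whose mean reached 0.2 TPM (a gene's share of the transcripts of a library, corrected for length) were examined.

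CX3CL1, or fractalkine, is a chemokine that binds the G protein-coupled receptor CX3CR1. The genes of inflammatory chemokines and cytokines are commonly controlled by NF-kB, a family of transcription factors that are held in the cytoplasm by IkB proteins until a signal releases them. IFN-γ binds the receptor chains IFNGR1 and IFNGR2 and acts through JAK kinases and transcription factors that switch on antiviral genes, guanylate-binding GTPases and the antigen presentation machinery. Some promoters carry sites for both systems, and for those the question of whether 2 signals add, multiply or saturate arises gene by gene.

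For each gene, 2 expectations were computed from the group means of log2(TPM + 1). The additive expectation is the untreated level plus the rise with CX3CL1 plus the rise with IFN-γ, in TPM. The multiplicative expectation is the untreated level times both fold changes, on the TPM + 1 scale. The departure from the additive expectation is the log2 of observed over expected TPM + 1. The departure from the multiplicative expectation is the interaction, that is the CX3CL1 effect in IFN-γ-treated cells minus the CX3CL1 effect in cells without IFN-γ. A gene raised by each agent whose rises sum lies at the additive expectation and has a negative interaction, and a gene whose combined level is no higher than with either agent lies under both expectations.

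The libraries carried no read depth, because TPM add up to the same total in each, so that the replicates alone show the precision. Of 10 leukocyte markers, 7 had a mean under 0.2 TPM. The summed level of all 10 ran from 1.59 to 2.03 TPM in untreated, 0.578 to 2.45 TPM in CX3CL1, 1.39 to 3.76 TPM in IFN-γ and 1.06 to 7.21 TPM in combined libraries, with CD3E at 0 in every library, PTPRC at most 0.0441 TPM and S100A8 the highest at 6.60 TPM in a combined library. Of the epithelial markers, EPCAM was listed at 0 in all 12 libraries, CDH1 reached at most 0.0430 TPM and KRT18 ran from 18.4 to 53.6 TPM, while the mesenchymal marker VIM ran from 1684 to 4831 TPM. CX3CR1, the receptor of CX3CL1, was between 0 and 0.154 TPM, and CX3CL1 itself was at most 0.0178 TPM.

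IFN-γ alone changed more genes than CX3CL1 alone, and few genes were called between the combined libraries and IFN-γ alone. A gene was called at an adjusted p under 0.05 in limma on log2(TPM + 1), fitted over all 12 libraries with Benjamini-Hochberg adjustment over all genes tested. CX3CL1 alone raised 212 genes (1.78%) and lowered 20 (0.168%). IFN-γ alone raised 702 genes (5.91%) and lowered 230 (1.94%), and the split was 640 higher and 351 lower after median-ratio scaling and 556 and 536 after quantile normalization. With the replicate number as a block IFN-γ alone changed 1929 genes in place of 932. IFN-γ given on top of CX3CL1 raised 447 genes (3.76%) and lowered 111 (0.935%), 1369 in all with the block, and 357 higher and 187 lower or 349 higher and 228 lower under the same 2 scalings. CX3CL1 given on top of IFN-γ raised only 41 genes (0.345%) and lowered 2 (0.0168%), 95 in all with the block. Without IFN-γ replicate 1, 2 or 3 the number changed by CX3CL1 on top of IFN-γ was 26, 17 or 23, and without combined replicate 1 or 3 it was 17 or 16. Without untreated replicate 3, IFN-γ replicate 3 or CX3CL1 replicate 2 the number changed by IFN-γ alone was 530, 551 or 1499, without untreated replicate 3 that changed by CX3CL1 alone was 152, and without combined replicate 3 that changed by IFN-γ on top of CX3CL1 was 270.

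The CX3CL1 effect without IFN-γ and the CX3CL1 effect with IFN-γ rest on different libraries, so each effect can be read in the other. The calls are not independent, because both use the spread that the fit takes for each gene from all 12 libraries. Of the 212 genes raised by CX3CL1 alone, 32 (15.1%) were also raised by it on top of IFN-γ, and 202 had a positive log2 fold change there. The median log2 fold change of the 212 was 1.27 in the libraries that chose them and 0.39 in cells with IFN-γ, where the quartiles were 0.20 and 0.66 and the median over all genes was -0.0030. Of the 41 genes raised on top of IFN-γ, the same 32 (78%) were raised without it, with a median of 1.04 where they were chosen and 1.06 where they were not. The 702 genes raised by IFN-γ alone had a median of 0.84 where they were chosen and 0.63 in cells with CX3CL1, and 383 of them (54.6%) were called there. The plot of effects with and without the other agent shows the genes by their lists.

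**Figure D1:**
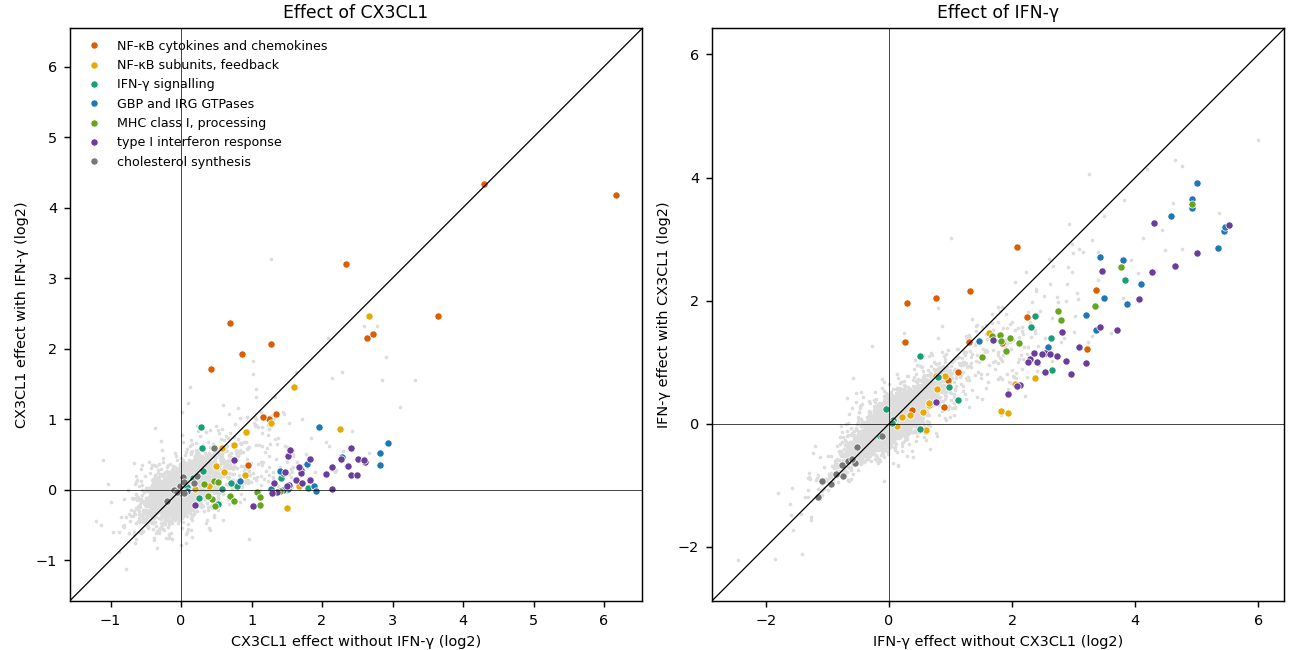
Log2 fold change of CX3CL1 (left) without IFN-γ on the x axis and with IFN-γ on the y axis, and of IFN-γ (right) without and with CX3CL1, on the log2(TPM + 1) scale. Grey points are all 11878 genes, coloured points the members of the lists named in the legend, and the diagonal line marks equal effects. Members of the type I interferon response and of the GBP and IRG lists lie below the diagonal on the left, at CX3CL1 effects up to about 3 without IFN-γ. Their median effects with IFN-γ are 0.22 and 0.25. Several NF-kB cytokines and chemokines lie on or above the diagonal.

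In the test of the interaction 0 of 11878 genes (0%) passed the threshold in limma, and 273 genes (2.30%) had an unadjusted p under 0.05. Of these, 208 (1.75%) had a negative and 65 (0.547%) a positive interaction. The lowest adjusted p, 0.0792, was shared by 9 genes, all with a negative interaction, among them OAS3, RTP4, DDX58, XAF1, GBP3, PHF11D, OASL2 and ISG15. Without untreated replicate 1, 11 genes passed, all negative, and without combined replicate 2, 1 gene passed. In the test of additivity, 4 of 11830 genes (0.0338%) passed, all above the additive expectation: IL13RA2, IL6, CXCL2 and CXCL3. A further 48 genes had an additive expectation below 0 TPM and were not tested. At an unadjusted p under 0.05 there were 57 genes (0.482%) above and 79 genes (0.668%) below the additive expectation. Without 1 library the number past the threshold was 1 (without untreated replicate 3, CX3CL1 replicate 2, IFN-γ replicate 1 or 2, or combined replicate 1) or 2 (without untreated replicate 1 or 2, CX3CL1 replicate 1, IFN-γ replicate 3 or combined replicate 3), and 6 without combined replicate 2.

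For most genes raised by each agent alone, the interval of the combined level held the sum of the 2 rises and lay under their product. Each agent alone raised 167 genes. Their median interaction was -1.03, and the 95% interval lay under the multiplicative expectation for 127 of them and above it for 2 (1.75% and 0.547% of all genes). Their median departure from additivity was -0.15, and the 95% interval held 0 for 127 genes, lay above it for 16 and lay below it for 24 (above and below for 0.482% and 0.668% of all genes). These intervals are not adjusted for the number of genes, and the selection used the same untreated, CX3CL1 and IFN-γ libraries that set both expectations. A place under the product can therefore come in part from the selection. On the arithmetic means of TPM, with no pseudocount, all 167 were under the product of their 2 fold changes. The 3 combined libraries were above all 3 CX3CL1 libraries for 129 of the genes (14% of all genes) and above all 3 IFN-γ libraries for 53 (8.54% of all genes).

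The sequences upstream of some genes that differ in this respect are given next, so that their letters can be read beside the levels. They are chosen examples and not the ends of a ranking. The windows span 250 bases before to 50 bases after the annotated start (RefSeq, build GRCm38.p6), and 7 genes are shown. IL13RA2, CXCL2, CXCL3 and IL6 are the genes above the additive expectation, ISG15 and GBP2 are interferon genes far under the multiplicative expectation, and CXCL10 is known to answer both signals. They lie at chrX:147429143-147429442 (minus strand) for IL13RA2, chr5:90903649-90903948 (plus strand) for CXCL2, chr5:90785851-90786150 (plus strand) for CXCL3, chr5:30012864-30013163 (plus strand) for IL6, chr5:92348840-92349139 (minus strand) for CXCL10, chr4:156200769-156201068 (minus strand) for ISG15 and chr3:142620413-142620712 (plus strand) for GBP2. Capitals mark matches on either strand to the NF-kB consensus or to GAAANNGAA (a form of the interferon-stimulated response element).
IL13RA2: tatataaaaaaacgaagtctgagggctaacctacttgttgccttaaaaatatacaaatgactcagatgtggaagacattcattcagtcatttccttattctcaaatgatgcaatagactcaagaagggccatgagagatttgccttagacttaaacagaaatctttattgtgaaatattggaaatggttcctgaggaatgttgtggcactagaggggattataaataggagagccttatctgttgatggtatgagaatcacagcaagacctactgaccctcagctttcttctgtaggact
CXCL2: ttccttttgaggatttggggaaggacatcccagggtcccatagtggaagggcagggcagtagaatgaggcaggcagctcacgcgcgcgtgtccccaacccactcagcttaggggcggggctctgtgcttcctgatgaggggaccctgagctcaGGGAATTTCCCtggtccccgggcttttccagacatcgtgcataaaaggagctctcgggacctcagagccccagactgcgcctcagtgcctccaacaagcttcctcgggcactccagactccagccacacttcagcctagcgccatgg
CXCL3: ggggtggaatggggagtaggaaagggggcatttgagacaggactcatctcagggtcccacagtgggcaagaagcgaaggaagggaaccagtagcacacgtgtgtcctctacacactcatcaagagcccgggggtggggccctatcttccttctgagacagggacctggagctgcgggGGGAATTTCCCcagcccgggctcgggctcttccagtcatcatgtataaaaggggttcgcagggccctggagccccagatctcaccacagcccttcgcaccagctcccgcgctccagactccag
IL6: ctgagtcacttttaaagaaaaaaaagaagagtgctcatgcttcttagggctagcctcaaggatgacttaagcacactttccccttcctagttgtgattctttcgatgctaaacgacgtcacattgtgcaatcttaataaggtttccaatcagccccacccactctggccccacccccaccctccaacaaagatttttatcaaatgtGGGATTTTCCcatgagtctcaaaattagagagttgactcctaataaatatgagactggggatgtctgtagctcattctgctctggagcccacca
CXCL10: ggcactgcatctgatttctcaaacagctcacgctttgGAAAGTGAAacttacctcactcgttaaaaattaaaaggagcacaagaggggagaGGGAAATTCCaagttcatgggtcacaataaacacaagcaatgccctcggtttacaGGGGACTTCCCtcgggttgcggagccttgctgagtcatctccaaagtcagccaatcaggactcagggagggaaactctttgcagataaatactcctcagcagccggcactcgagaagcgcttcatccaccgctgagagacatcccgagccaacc
ISG15: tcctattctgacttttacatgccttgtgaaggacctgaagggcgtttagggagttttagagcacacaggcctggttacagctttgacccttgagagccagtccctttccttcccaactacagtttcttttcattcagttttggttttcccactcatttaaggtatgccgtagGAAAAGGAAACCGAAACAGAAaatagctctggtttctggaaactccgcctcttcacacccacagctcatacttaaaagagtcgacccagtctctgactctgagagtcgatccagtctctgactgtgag
GBP2: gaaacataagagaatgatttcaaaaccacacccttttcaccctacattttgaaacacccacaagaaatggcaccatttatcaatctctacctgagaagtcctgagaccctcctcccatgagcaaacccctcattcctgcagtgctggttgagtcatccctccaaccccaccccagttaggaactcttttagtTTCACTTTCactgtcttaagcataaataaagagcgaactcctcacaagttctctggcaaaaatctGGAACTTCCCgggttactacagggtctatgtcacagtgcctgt

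Of these windows, those of CXCL2 and CXCL3 each held 2 NF-kB matches, which overlap because the site reads on both strands, and that of IL6 held 1. The window of ISG15 held 3 overlapping response element matches, that of CXCL10 held 3 NF-kB matches, 2 of them overlapping, and 1 response element match, and that of GBP2 held 1 of each. No match lay in the window of IL13RA2, which says only that these letters are not there. Over all 32851 windows of this length, 8.46% held the NF-kB consensus and 8.56% the response element letters. Among 10 NF-kB dependent cytokine and chemokine genes with a window, 7 (70%) held the NF-kB consensus and 1 (10%) the response element letters. Among 11 genes of NF-kB subunits, inhibitors and feedback, 7 (63.6%) held the NF-kB consensus and 1 (9.09%) the response element letters. The median departure from additivity of that list was -0.12. Among 10 GBP and IRG genes all 10 (100%) held the response element letters and 2 (20%) the NF-kB consensus, and among 20 type I interferon response genes these numbers were 13 (65%) and 5 (25%). A match of letters is a description and not a bound site.

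Cytokines and chemokines of the NF-kB list mostly stood above the sum of the 2 single-agent rises. Of the 16 genes listed, 14 were tested, and 13 of the 14 were above the additive expectation (54.7% of all genes), with a median departure of 1.12 against 0.017 over all genes. For 10 of them the unadjusted p was under 0.05 (0.482% of all genes) and for 3 (CXCL2, CXCL3 and IL6) the adjusted p as well (0.0338% of all genes). Their median interaction was -0.19 against 0.012 over all genes, with 8 members negative (46.5% of all genes) and 6 positive. CX3CL1 raised 10 members alone and 8 on top of IFN-γ (1.78% and 0.345% of all genes). IFN-γ raised 10 alone and 8 on top of CX3CL1 (5.91% and 3.76% of all genes). TNF and IL1B did not pass the filter on low values.

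IL6, the cytokine interleukin-6, was low in untreated cells, at 0.238, 0.203 and 0.407 TPM in replicates 1 to 3. It was 2.68, 1.67 and 2.03 TPM with CX3CL1 and 4.39, 4.50 and 4.27 TPM with IFN-γ. In the combined libraries it was 24.9, 13.6 and 29.6 TPM, and every combined library was above every other library. The additive expectation was 6.21 TPM and the multiplicative expectation 12 TPM, against an observed level of 21.6 TPM. The departure from additivity was 1.65 on the log2 scale (95% interval 1.20 to 2.10, limma adjusted p = 0.0184), or 3.13-fold on the TPM + 1 scale. In plain TPM, CX3CL1 added 1.85 TPM (SE 0.304) without IFN-γ and 18.3 TPM (SE 4.75) with it. When each library was left out in turn the call was lost 7 of 12 times, and the departure ran from 1.43 to 1.97.

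CXCL2 and CXCL3, chemokines that draw neutrophils through the receptor CXCR2, were both low in every single-agent library. CXCL2 was listed at 0 in all 3 untreated libraries and was 0.300, 0.970 and 0.655 TPM with CX3CL1 and 0.294, 0.142 and 0.234 TPM with IFN-γ. It reached 4.07, 3.98 and 8.80 TPM in the combined libraries, well clear of every single-agent library. Its additive expectation was 0.840 TPM and its departure 1.77 (95% interval 1.23 to 2.31, limma adjusted p = 0.0387). CXCL3 was 0.0697, 0 and 0.0529 TPM untreated, 3.99, 3.25 and 5.90 TPM with CX3CL1, 1.28, 1.08 and 2.60 TPM with IFN-γ and 16.3, 19.4 and 36.2 TPM combined. Its combined libraries were again all above the rest, and its departure was 1.79 (95% interval 1.23 to 2.36, limma adjusted p = 0.0387) over an expected 5.81 TPM. Each of the 2 calls was kept in only 2 of the 12 fits that left out 1 library. CXCL1, CXCL2 and CXCL3 are similar genes close together on chromosome 5, between which reads may have been shared.

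CXCL1, the most abundant of these chemokines, was 6.70, 4.03 and 4.15 TPM in untreated, 620.3, 305 and 393 TPM in CX3CL1 and 71.7, 39.0 and 54.5 TPM in IFN-γ libraries. It was 1551, 499.9 and 1218 TPM in the combined libraries, of which replicate 2 lay within the range of the CX3CL1 libraries. The observed 981 TPM stood between an additive 469 TPM and a multiplicative 3925 TPM. The interaction was -2.0 (95% interval -3.17 to -0.83, adjusted p = 0.446) and the departure from additivity 1.06 (95% interval 0.28 to 1.85, limma adjusted p = 1.00), so that neither passed the threshold. CXCL5, a chemokine of the same receptor, was almost silent in untreated cells at 0.186, 0.0252 and 0.0282 TPM and was 34.0, 16.1 and 14.9 TPM with CX3CL1, 3.10, 0.906 and 1.36 TPM with IFN-γ and 68.9, 33.1 and 62.5 TPM combined. Replicate 2 of the combined libraries again overlapped the CX3CL1 range. The departure of CXCL5 was 1.23 (95% interval 0.50 to 1.96).

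The CC chemokines CCL2 and CCL7, which draw monocytes, were close to silent in untreated cells and were raised by each agent to like levels. CCL2 was 2.85, 0.669 and 0.374 TPM untreated, 44.1, 13.2 and 26.2 TPM with CX3CL1, 27.5, 10.6 and 27.8 TPM with IFN-γ and 162, 55.7 and 170.5 TPM combined. All 3 combined libraries were above every single-agent library, and the observed 116 TPM was above an additive 44.0 TPM and below a multiplicative 265 TPM. Its departure from additivity was 1.37 (95% interval 0.33 to 2.41). For CCL7 the departure was 1.07 (95% interval 0.11 to 2.03) and for CCL20, the ligand of CCR6, 0.84 (95% interval 0.36 to 1.33), none of the 3 past the threshold after adjustment. LIF, an IL-6 family cytokine, stood near additivity at 0.30 (95% interval -0.24 to 0.83). CSF1, the growth factor of macrophages, was the member below it, with 225 ± 11.5 TPM untreated, 445 ± 108 TPM with CX3CL1, 419 ± 47.8 TPM with IFN-γ and 537 ± 110.5 TPM combined (SD, n = 3 each). Its departure was -0.25 (95% interval -0.65 to 0.15).

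**Figure D2:**
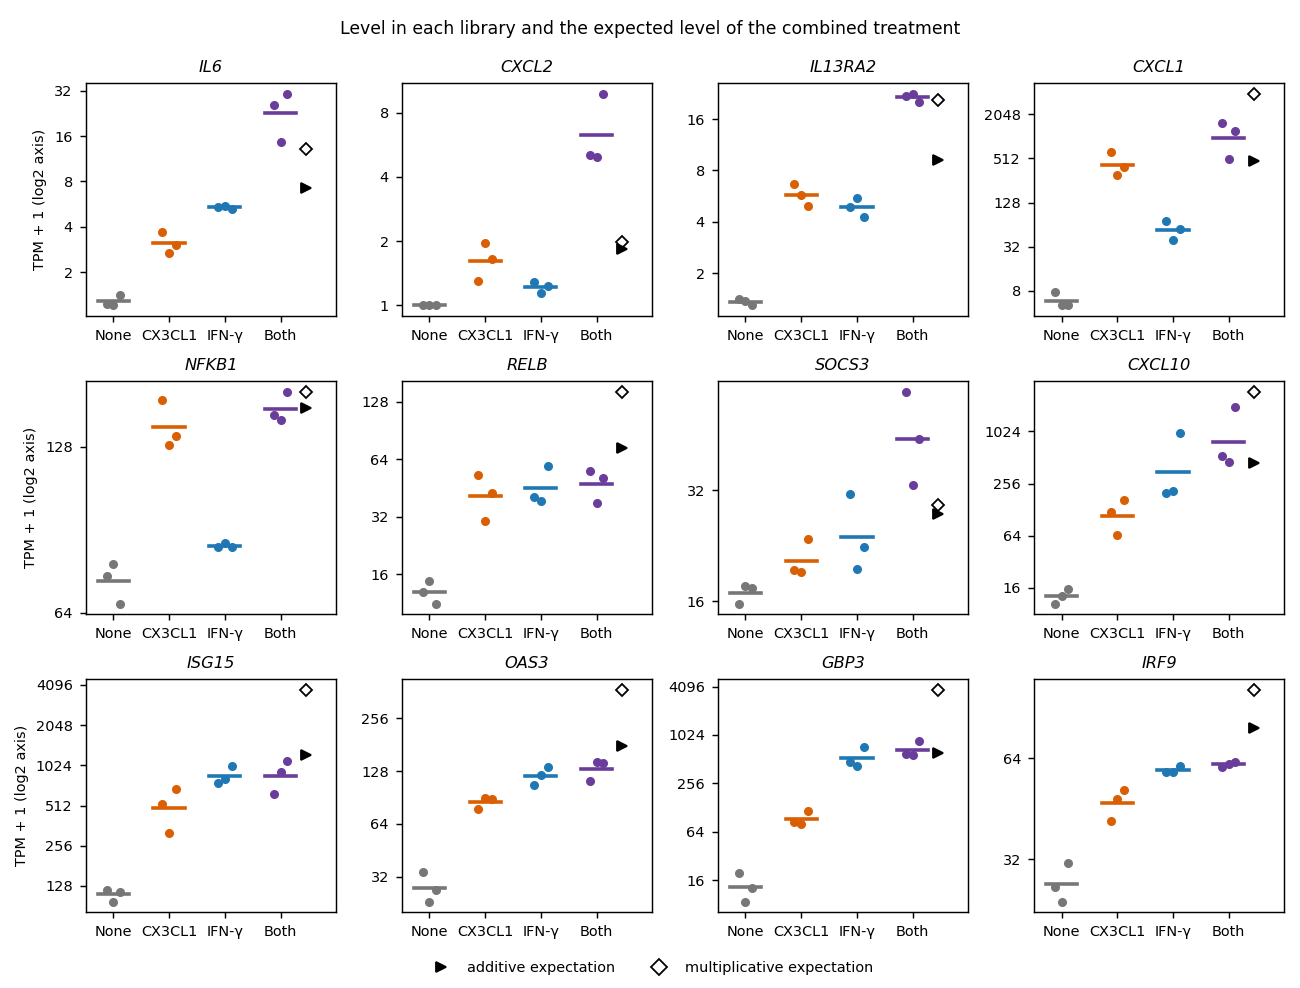
TPM + 1 on a log2 axis in each library of the 4 groups (points), with the group mean of log2(TPM + 1) as a horizontal line, and the additive (filled triangle) and multiplicative (open diamond) expectation for the combined group. In IL6, CXCL2 and IL13RA2 the combined libraries lie above the triangle, in NFKB1 they surround it, and in RELB, ISG15, OAS3 and IRF9 the group mean lies below both marks.

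IL13RA2, a receptor chain that binds interleukin-13 and is known as a decoy, gave the clearest departure from additivity. It lies on chromosome X from 147383476 to 147429192 on the minus strand. Its libraries were 0.408, 0.364 and 0.290 TPM untreated, 5.63, 4.74 and 3.98 TPM with CX3CL1, 3.88, 4.52 and 3.24 TPM with IFN-γ and 20.9, 21.5 and 19.1 TPM combined. The 4 groups had little spread, the single-agent groups overlapped each other, and the combined libraries were far above both. Against an additive 8.25 TPM the observed level was 20.5 TPM, a departure of 1.22 (95% interval 0.95 to 1.48, limma adjusted p = 0.00271). The call was kept in all 12 fits that left out 1 library, with a departure of 1.15 to 1.28. The interaction was 0.059 (95% interval -0.34 to 0.46), which is at the multiplicative expectation of 19.6 TPM on the TPM + 1 scale.

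Whether genes near 0 TPM met the multiplicative expectation depended on the pseudocount. On the arithmetic means without a pseudocount, all 12 members of the cytokine list that had a level above 0 in untreated cells were below the product of their fold changes. The ratio of observed to that product was 0.687 for IL6, 0.135 for CXCL3, 0.113 for CXCL5 and 0.390 for IL13RA2, and 0.223 for CXCL1. The interaction of IL6 was 0.79 with a pseudocount of 1 and -0.28 with 0.1, that of CXCL3 0.85 and -1.20, and that of IL13RA2 0.059 and -1.04. The departures from additivity kept their sign under both, at 1.78 for IL6, 1.95 for CXCL3 and 1.30 for IL13RA2 with a pseudocount of 0.1.

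Other inflammatory genes with this pattern were NOS2, IL1A, CSF3, NLRP3, MMP13 and BCL3, whose single-agent levels were low and uneven. NOS2, which makes nitric oxide, was 0.0885, 0.00859 and 0 TPM untreated, 3.69, 0.368 and 1.40 TPM with CX3CL1, 2.29, 0.318 and 1.07 TPM with IFN-γ and 39.4, 5.15 and 31.9 TPM combined. In every treated group replicate 1 was highest and replicate 2 lowest, and the combined libraries were all above the single-agent ones. The departure of NOS2 was 2.51 (95% interval 1.21 to 3.81, limma adjusted p = 1.00), not past the threshold. IL1A, the cytokine interleukin-1 alpha, was 0.451, 0.245 and 0.451 TPM with CX3CL1, 1.75, 0.334 and 0.440 TPM with IFN-γ and 8.27, 2.93 and 4.05 TPM combined, a departure of 1.44 (95% interval 0.74 to 2.14). MMP13, a collagenase, was 1.43 ± 0.489 TPM untreated, 6.58 ± 1.72 TPM with CX3CL1, 6.25 ± 1.52 TPM with IFN-γ and 22.3 ± 5.92 TPM combined (SD, n = 3 each), with a departure of 0.90 (95% interval 0.42 to 1.37). CSF3 (G-CSF) had a departure of 1.17 (95% interval 0.13 to 2.22), NLRP3, the inflammasome sensor, 0.91 (95% interval 0.17 to 1.66) and BCL3, a nuclear IkB protein, 0.72 (95% interval 0.089 to 1.36). SAA3, an acute-phase protein, was 6.76, 1.15 and 4.98 TPM untreated, 60.3, 16.9 and 32.8 TPM with CX3CL1, 175, 68.1 and 82.8 TPM with IFN-γ and 636, 167 and 241 TPM combined. Replicate 2 was the lowest of its group throughout, and the departure of SAA3 from additivity was 1.20 (95% interval 0.022 to 2.37). None of these passed the threshold after adjustment.

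**Figure D3:**
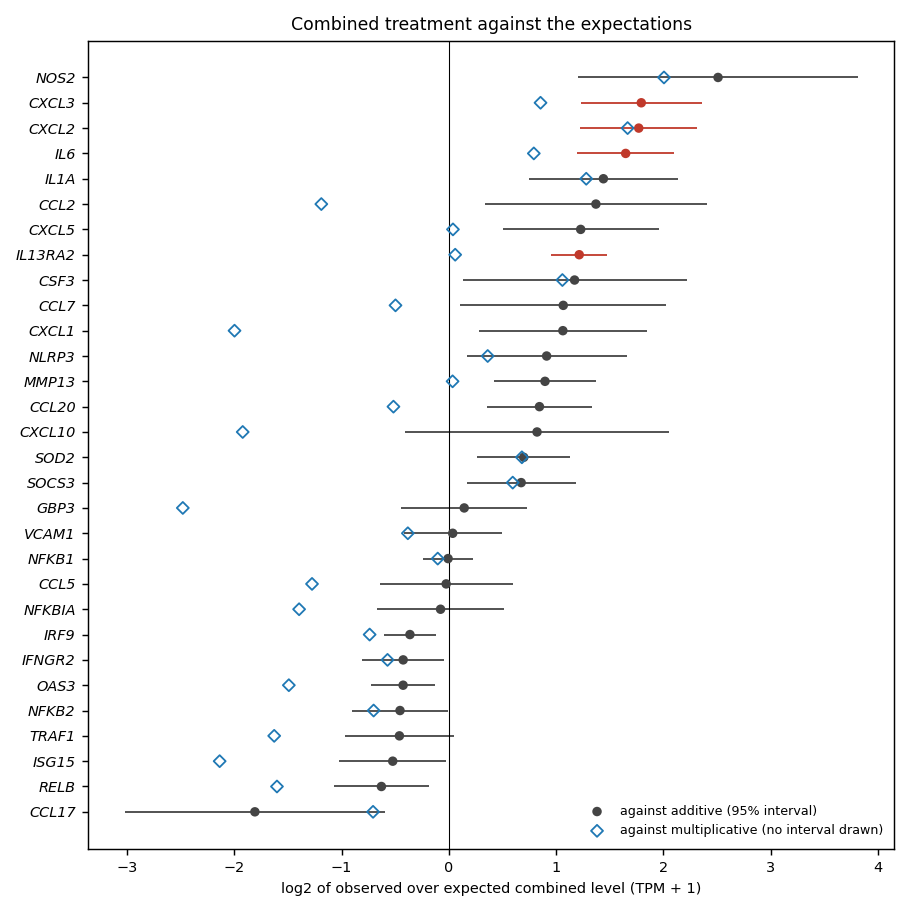
Log2 of the observed combined level over the additive expectation (points, with 95% intervals from limma's moderated spread) and over the multiplicative expectation (open diamonds) for 30 named genes, both on TPM + 1. Red marks the 4 genes past the threshold (CXCL3, CXCL2, IL6 and IL13RA2), of which IL13RA2 has the narrowest interval, and most diamonds lie left of 0.

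The subunits, inhibitors and feedback genes of NF-kB itself did not share the excess of the cytokines. All 15 listed genes were tested, and their median departure from additivity was -0.12 with 5 above and 10 below (54.7% and 45.3% of all genes). Their median interaction was -0.33 with 14 negative (46.5% of all genes). The unadjusted p was under 0.05 for 1 gene above and 3 below the additive expectation (0.482% and 0.668% of all genes). CX3CL1 raised 9 members alone and 2 on top of IFN-γ (1.78% and 0.345% of all genes). IFN-γ raised 8 alone and 2 on top of CX3CL1 (5.91% and 3.76% of all genes). NFKB1, the precursor of the p50 subunit, was 73.7, 77.5 and 65.6 TPM untreated, 155, 128 and 133 TPM with CX3CL1, 83.1, 84.6 and 83.2 TPM with IFN-γ and 145, 142 and 159 TPM combined. CX3CL1 added 66.1 TPM (SE 9.0) without IFN-γ and 65.2 TPM (SE 5.42) with it, and the departure from additivity was -0.0075 (95% interval -0.24 to 0.22). For NFKBIA, the inhibitor IkB alpha, the observed 129 TPM was near the additive 136 TPM, with a departure of -0.078 (95% interval -0.67 to 0.51). That interval is wide, and levels well above or below the sum are not told apart from it.

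RELB and NFKBIE reached about the same level with either agent as with both. RELB, a subunit of the alternative NF-kB pathway, was 11.9, 13.8 and 10.3 TPM untreated, 52.2, 29.5 and 41.5 TPM with CX3CL1, 39.8, 37.9 and 57.9 TPM with IFN-γ and 54.5, 36.9 and 50.1 TPM combined. The 3 treated groups overlapped one another, and all were above the untreated libraries. CX3CL1 alone raised it by 1.67 on the log2 scale (limma adjusted p = 0.00112) and its effect on top of IFN-γ was 0.066 (adjusted p = 0.990). The interaction was -1.60 (95% interval -2.27 to -0.93, limma adjusted p = 0.145) and the departure from additivity -0.63 (95% interval -1.07 to -0.19). NFKBIE, the inhibitor IkB epsilon, was 16.8 ± 5.03 TPM with CX3CL1, 23.5 ± 9.69 TPM with IFN-γ and 18.7 ± 2.55 TPM combined (SD, n = 3 each), with a departure of -0.82 (95% interval -1.34 to -0.31). For TRAF1, an adaptor of TNF receptors, CX3CL1 added 5.60 TPM (SE 1.14) without IFN-γ and -0.013 TPM (SE 3.36) with it. TRAF1 departed by -0.46 (95% interval -0.97 to 0.045), and NFKB2, the precursor of p52, by -0.46 (95% interval -0.90 to -0.012). GDPD5, a phosphodiesterase, and IFNGR2, a chain of the IFN-γ receptor, were likewise below the sum, at -0.67 (95% interval -1.01 to -0.34) and -0.43 (95% interval -0.81 to -0.044). None of these genes passed the threshold of either test after adjustment.

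Type I interferon response genes were raised by CX3CL1 alone, and none was called with CX3CL1 on top of IFN-γ in the fit without a block. Of the 28 genes listed and tested, CX3CL1 alone raised 23 (1.78% of all genes). At an unadjusted p under 0.05, 27 were higher with it (8.07% of all genes changed in either direction). IFN-γ raised all 28 alone and 22 on top of CX3CL1 (5.91% and 3.76% of all genes). On top of IFN-γ, CX3CL1 raised 0 of the 28 in limma (0 at an unadjusted p under 0.05, against 2.64% of all genes), and their median log2 fold change was 1.71 without and 0.22 with IFN-γ. The 3 CX3CL1 libraries were above all 3 untreated libraries for 26 of the 28 genes (5.50% of all genes), and the 3 combined libraries were above all 3 IFN-γ libraries for 0 (8.54% of all genes). These counts do not use the replicate numbers, although IFN-γ and combined libraries of the same number deviated together (correlations of 0.630 to 0.649). A small rise shared by the replicates can be missed in this way. Number by number, each combined library was above its IFN-γ library for IFIT1 and IFIH1, and below it for BST2. All 28 interactions were negative (46.5% of all genes), 24 with an unadjusted p under 0.05 (1.75% of all genes), and their median was -1.48 against 0.012 over all genes. The median departure from additivity was -0.24 against 0.017 over all genes, with 20 members below (45.3% of all genes) and 8 above. At an unadjusted p under 0.05, 4 were below the additive expectation (0.668% of all genes). IFIT3 and IFIT3B and the OAS1 genes have near-identical copies, and their values are uncertain.

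ISG15, a ubiquitin-like protein that is joined to other proteins in the antiviral response, lies on chromosome 4. It was 119, 96.7 and 114 TPM untreated, 524, 320.5 and 684 TPM with CX3CL1, 751, 813 and 1017 TPM with IFN-γ and 624, 915 and 1095 TPM combined. All CX3CL1 libraries were above the untreated ones, and the combined libraries spanned the range of the IFN-γ libraries on both sides. CX3CL1 added 399.7 TPM (SE 106) without IFN-γ and 17.8 TPM (SE 159) with it. The interaction was -2.14 (95% interval -2.91 to -1.36, limma adjusted p = 0.0792), and the observed 855 TPM was below both the additive 1229.7 TPM and the multiplicative 3765 TPM. Its departure from additivity was -0.52 (95% interval -1.02 to -0.025, limma adjusted p = 1.00).

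OAS3, an oligoadenylate synthetase that senses double-stranded RNA, had the smallest unadjusted p of the interaction. Its libraries were 32.9, 22.1 and 25.8 TPM untreated, 77.3, 88.7 and 87.8 TPM with CX3CL1, 105, 120.4 and 134 TPM with IFN-γ and 112, 144 and 141 TPM combined. The untreated and CX3CL1 libraries were far apart, while the IFN-γ and combined libraries overlapped. Its interaction was -1.49 (95% interval -1.94 to -1.04, limma adjusted p = 0.0792), and CX3CL1 added 57.7 TPM (SE 4.83) without and 12.5 TPM (SE 13.1) with IFN-γ. RTP4, an interferon-induced chaperone, was 88.0 ± 12 TPM with CX3CL1, 118 ± 12.2 TPM with IFN-γ and 123 ± 10.1 TPM combined (SD, n = 3 each), a departure of -0.51 from the additive 175 TPM (95% interval -0.81 to -0.21). DDX58 (RIG-I, a sensor of viral RNA) had an interaction of -1.47 (95% interval -1.96 to -0.98), XAF1 one of -1.62 (95% interval -2.18 to -1.05), OASL2 one of -1.85 (95% interval -2.51 to -1.19) and USP18, the protease that removes ISG15, one of -2.21 (95% interval -3.09 to -1.32). IFIT1, which binds foreign RNA ends, was near the sum of its rises, with 304 TPM observed against 307 TPM (departure -0.014, 95% interval -0.62 to 0.59). CX3CL1 added 79.0 TPM to IFIT1 on top of IFN-γ, with an SE of 87.0 that uses no pairing and does not tell the sum from no added rise. Each combined library was above the IFN-γ library of its number (206, 314 and 433 against 154, 215 and 347 TPM).

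**Figure D4:**
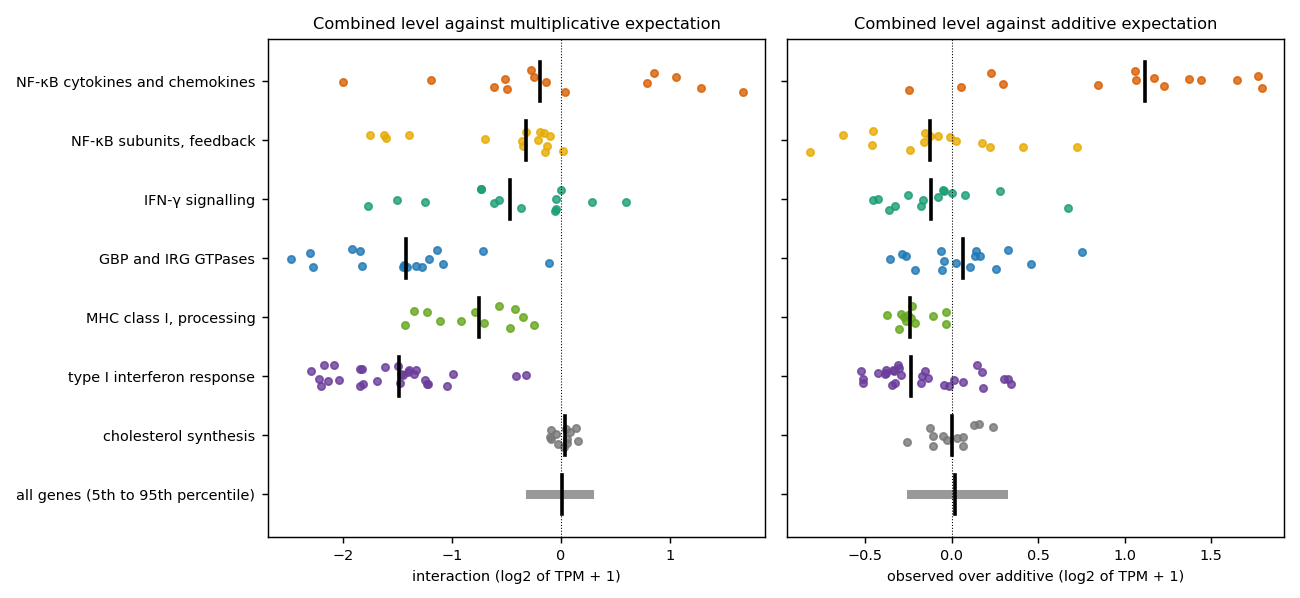
Interaction (left) and departure from the additive expectation (right) of each tested member of 7 lists, on the log2 scale of TPM + 1. Points are genes, black bars are medians, and the grey bar spans the 5th to 95th percentile of all genes, from -0.29 to 0.26 on the left and from -0.23 to 0.30 on the right. The interferon lists lie left of 0 in the left panel and around 0 in the right one, and the NF-kB cytokines lie mostly right of 0 in the right panel.

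The GBP and IRG GTPases, which attack the vacuoles of intracellular pathogens, had large rises with IFN-γ and the median departure from additivity nearest 0 among the interferon lists. All 16 genes were tested and raised by IFN-γ, both alone and on top of CX3CL1 (5.91% and 3.76% of all genes). In limma 9 were raised by CX3CL1 alone and 0 on top of IFN-γ (1.78% and 0.345% of all genes). At an unadjusted p under 0.05, 15 were higher with CX3CL1 alone (8.07% of all genes changed in either direction) and 0 on top of IFN-γ (2.64% of all genes higher). Their interactions were all negative (46.5% of all genes) with a median of -1.43, 11 with an unadjusted p under 0.05 (1.75% of all genes). Their median departure from additivity was 0.065 with 9 above and 7 below (54.7% and 45.3% of all genes) and 0 at an unadjusted p under 0.05. In this fit, which has no block, no member differed detectably from the sum or from IFN-γ alone. It therefore does not tell addition from no added CX3CL1 rise. Number by number, each combined library was above its IFN-γ library for GBP2 and GBP3. For IGTP and IRGM1, replicates 1 and 3 of the combined libraries were below theirs. GBP3 was 18.9, 7.65 and 11.7 TPM untreated, 82.4, 78.6 and 116 TPM with CX3CL1, 472, 423 and 727 TPM with IFN-γ and 601, 571 and 869 TPM combined. The combined libraries overlapped the IFN-γ libraries, and their observed 668 TPM was near the additive 605 TPM (departure 0.14, 95% interval -0.45 to 0.73) and far below the multiplicative 3732 TPM. Its interaction of -2.48 (95% interval -3.36 to -1.60, limma adjusted p = 0.0792) was the most negative of all genes tested. For GBP2 the interaction was -2.31 (95% interval -3.42 to -1.20) and the departure from additivity 0.33 (95% interval -0.42 to 1.07). GBP5 varied widely between replicates, at 25.2, 28.5 and 118 TPM with IFN-γ and 53.9, 57.2 and 179 TPM combined, with replicate 3 the highest in both, and its departure was 0.76 (95% interval -0.39 to 1.90). Several members, TGTP1 and TGTP2 among them, are near-identical copies with uncertain values.

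Genes of MHC class I and antigen processing were raised by IFN-γ, and none was called higher when CX3CL1 was added to it in limma. Of 13 listed genes, 12 were tested, and IFN-γ raised all 12 alone and 11 on top of CX3CL1 (5.91% and 3.76% of all genes). CX3CL1 raised 1 alone and 0 on top of IFN-γ (1.78% and 0.345% of all genes). At an unadjusted p under 0.05, 8 were higher with CX3CL1 alone (8.07% of all genes changed in either direction) and 0 on top of IFN-γ (2.64% of all genes higher). The median log2 fold change with CX3CL1 was 0.61 without and -0.096 with IFN-γ. All 12 interactions were negative (46.5% of all genes), with a median of -0.75 and 7 at an unadjusted p under 0.05 (1.75% of all genes). All 12 departures from additivity were negative (45.3% of all genes), with a median of -0.24 and 0 at an unadjusted p under 0.05. TAPBP, the chaperone that bridges MHC class I to the peptide transporter, was 99.4, 63.6 and 63.8 TPM untreated, 200.4, 166 and 234 TPM with CX3CL1, 760.0, 673 and 872 TPM with IFN-γ and 689.7, 709 and 873 TPM combined. It was the member that CX3CL1 alone raised, its combined and IFN-γ libraries overlapped, and its interaction was -1.43 (95% interval -1.99 to -0.87, limma adjusted p = 0.105). TAP1, a chain of that transporter, was 42.3 ± 14.1 TPM with CX3CL1, 139.7 ± 37.8 TPM with IFN-γ and 137 ± 41.5 TPM combined (SD, n = 3 each), and PSMB9, an immunoproteasome subunit, 17.3 ± 7.76, 244 ± 69.6 and 209.5 ± 66.3 TPM. The interactions were -1.11 (95% interval -1.98 to -0.25) and -1.35 (95% interval -2.37 to -0.33). The classical MHC class I heavy chains are similar genes, between which reads may have been shared.

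In the IFN-γ signalling list 14 of 15 genes were tested, and the median interaction was -0.47 with 12 negative (46.5% of all genes). The median departure from additivity was -0.12 with 10 below (45.3% of all genes). CX3CL1 raised 3 alone and 0 on top of IFN-γ in limma (1.78% and 0.345% of all genes). At an unadjusted p under 0.05, 6 were higher with CX3CL1 alone (8.07% of all genes changed in either direction) and 2 on top of IFN-γ (2.64% of all genes higher). IFN-γ raised 8 alone and 7 on top of CX3CL1 (5.91% and 3.76% of all genes). IRF9, a DNA-binding factor of the interferon response, was 46.2 ± 5.09 TPM with CX3CL1, 58.0 ± 1.34 TPM with IFN-γ and 60.4 ± 1.14 TPM combined (SD, n = 3 each), with an interaction of -0.74 (95% interval -1.08 to -0.40). IRF1, a transcription factor of the same response, had an interaction of -0.73 (95% interval -1.59 to 0.12), and SOCS1, an inhibitor of JAK kinases, one of -0.37 (95% interval -1.14 to 0.40).

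SOCS3, another inhibitor of cytokine signalling, was the member of that list farthest above both expectations. It was 14.8, 16.6 and 16.4 TPM untreated, 18.4, 18.2 and 22.5 TPM with CX3CL1, 30.1, 18.5 and 21.5 TPM with IFN-γ and 58.0, 32.0 and 43.0 TPM combined. The rises with either agent were small, and every combined library was above every other library. Its departure from additivity was 0.67 (95% interval 0.16 to 1.18) and its interaction 0.60 (95% interval -0.027 to 1.22), neither past the threshold (limma adjusted p = 1.00 and 1.00), and on arithmetic means the observed level was 1.53 times the product. SOD2, the mitochondrial superoxide dismutase, chosen after its values were seen, was likewise higher in every combined library than in every other library. It was 57.7, 55.1 and 54.6 TPM untreated, 73.7, 63.9 and 59.6 TPM with CX3CL1, 64.0, 54.3 and 64.7 TPM with IFN-γ and 140.3, 85.5 and 126 TPM combined. Its interaction was 0.68 (95% interval 0.20 to 1.16, limma adjusted p = 0.933). THBS1, the matrix protein thrombospondin-1, was 39.7, 19.2 and 20.7 TPM with IFN-γ and 95.2, 53.6 and 69.2 TPM combined against 65.0, 23.1 and 36.9 TPM untreated and 66.8, 29.6 and 36.9 TPM with CX3CL1. Its combined libraries overlapped the untreated and CX3CL1 libraries and were all above the IFN-γ libraries, and its interaction was 1.33 (95% interval 0.14 to 2.52, limma adjusted p = 1.00).

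Genes known to answer both NF-kB and interferon signals were spread between these patterns. Of 16 listed genes 15 were tested, and the median interaction was -0.57 with 11 negative (46.5% of all genes). The median departure from additivity was 0.074 with 11 above (54.7% of all genes). CX3CL1 raised 6 alone and 2 on top of IFN-γ (1.78% and 0.345% of all genes). IFN-γ raised 13 alone and 11 on top of CX3CL1 (5.91% and 3.76% of all genes). CXCL10, a chemokine that draws T cells through CXCR3 and whose promoter is printed above, was 9.46, 11.7 and 14.4 TPM untreated, 119, 64.3 and 163 TPM with CX3CL1, 199.5, 207 and 974 TPM with IFN-γ and 532, 448 and 1965 TPM combined. Replicate 3 was the highest in every group, so the combined and IFN-γ libraries overlapped, although each combined library was above the IFN-γ library of its number. Its departure from additivity was 0.82 (95% interval -0.41 to 2.05) and its interaction -1.92 (95% interval -3.83 to -0.016), and neither passed the threshold. CXCL11, another ligand of CXCR3, was alike, with a departure of 0.60 (95% interval -0.59 to 1.79).

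CCL5, VCAM1, PTGS2, C3 and CD274 lay near the sum of the 2 rises. CCL5, a chemokine of T cells and monocytes, was 7.57 ± 1.09 TPM untreated, 25.7 ± 11.9 TPM with CX3CL1, 69.6 ± 18.9 TPM with IFN-γ and 87.6 ± 36.2 TPM combined (SD, n = 3 each). CX3CL1 added 18.2 TPM (SE 6.92) without IFN-γ and 18 TPM (SE 23.6) with it, and the departure was -0.025 (95% interval -0.65 to 0.60). The departure was 0.036 (95% interval -0.42 to 0.49) for VCAM1, an adhesion molecule for leukocytes, and 0.074 (95% interval -0.26 to 0.41) for PTGS2, the inducible cyclooxygenase. For C3, the central complement protein, it was -0.0026 (95% interval -1.04 to 1.04), and for CD274 (PD-L1), the checkpoint ligand, 0.27 (95% interval -0.63 to 1.17). The intervals of CCL5, C3 and CD274 are wide. Levels well above or below the sum, or equal to that with IFN-γ alone, are not told apart from the sum by these intervals, which use no pairing. For each of these genes every combined library was above the IFN-γ library of its number.

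CCL17, a chemokine that draws T cells through CCR4, had its CX3CL1 and IFN-γ libraries on opposite sides of the untreated ones. It was 4.55, 1.71 and 2.77 TPM untreated, 19.1, 5.89 and 13.3 TPM with CX3CL1, 1.22, 0.169 and 0.167 TPM with IFN-γ and 5.22, 0.805 and 1.17 TPM combined. All CX3CL1 libraries were above the untreated ones and all IFN-γ libraries below them, and replicate 1 was the highest in every group. Neither single-agent effect passed the threshold (limma adjusted p = 0.131 for CX3CL1 and 0.102 for IFN-γ). The combined level of 1.90 TPM was below the additive 9.16 TPM, a departure of -1.81 (95% interval -3.02 to -0.60, limma adjusted p = 1.00), and the interaction was -0.71 (95% interval -2.18 to 0.77).

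Among inflammasome components 6 of 10 genes were tested, with a median interaction of -0.059 and a median departure from additivity of 0.18. CASP1, the inflammatory caspase, was 16.2 ± 4.21 TPM untreated, 31.3 ± 3.19 TPM with CX3CL1, 57.3 ± 10.4 TPM with IFN-γ and 72.1 ± 14.7 TPM combined (SD, n = 3 each). For CASP1 the departure from additivity was -0.019 (95% interval -0.42 to 0.38), that of GSDMD, the pore-forming substrate of these caspases, -0.0067 (95% interval -0.27 to 0.25), and that of CASP4 0.22 (95% interval -0.38 to 0.82). Of 13 matrix proteases and inhibitors 10 were tested, with a median interaction of 0.017 and a median departure of 0.032. MMP9, a gelatinase, was 1.12, 1.02 and 1.84 TPM with CX3CL1, 0.309, 0.610 and 0.988 TPM with IFN-γ and 0.668, 1.01 and 1.68 TPM combined, and stood below the additive expectation at -0.45 (95% interval -0.87 to -0.018), while MMP13 stood above it. PLAUR, the receptor of urokinase, was also below, at -0.32 (95% interval -0.60 to -0.027).

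The cholesterol synthesis genes, which IFN-γ lowered, lay close to both expectations. IFN-γ lowered 11 of the 12 genes alone and 10 on top of CX3CL1 (1.94% and 0.935% of all genes). CX3CL1 changed 0 in limma without or with IFN-γ (1.95% and 0.362% of all genes), and 1 each at an unadjusted p under 0.05 (8.07% and 4.35%). Their median interaction was 0.037, from -0.098 to 0.15, and their median departure from additivity 0.0015, with 0 at an unadjusted p under 0.05 in either test. HMGCS1, the HMG-CoA synthase, was 257 ± 65.6 TPM untreated, 257 ± 35.5 TPM with CX3CL1, 119 ± 10.9 TPM with IFN-γ and 133 ± 2.43 TPM combined (SD, n = 3 each). Its log2 fold change with IFN-γ was -1.08 without and -0.93 with CX3CL1.

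At the positive end of the interaction, several transcripts were low or had copies elsewhere. Among the 8 genes with the most positive moderated t were PPP1R2-PS3, HNRNPA1L2-PS2 and ALDOART1, copies of other genes whose values are uncertain because reads could be shared with the parent gene. APOO, a subunit of the mitochondrial complex that shapes the inner membrane, was 4.96, 5.11 and 5.51 TPM untreated, 3.43, 3.65 and 3.92 TPM with CX3CL1, 3.24, 3.75 and 3.44 TPM with IFN-γ and 5.76, 4.35 and 4.05 TPM combined. It was lower in every library of either single agent than in any untreated library, and every combined library was above all libraries of the single agents. Its interaction was 0.75 (95% interval 0.38 to 1.12, limma adjusted p = 0.254). Over all genes tested, 6 had CX3CL1 libraries that lay apart from their controls in opposite directions without and with IFN-γ, 4 of them lower without and higher with it.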

How the data were processed

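Per the labels and the methods, libraries were made from mRNA with strand kept, and the authors mapped reads on mm10 with STAR 2.7.3a (VIPER pipeline) and tested gene counts with DESeq2 1.22.1. The values deposited by the authors are TPM, scaled to the same total in each library. How counts became TPM and which annotation was used are not given in the sources used here. Counts were not analysed here, so no count test was run, and depth and counting error are unknown.

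Genes averaging 0.2 TPM or more (11878) were tested with limma 3.58.1 in R 4.3.3 (lmFit, and eBayes with trend) on log2(TPM + 1), a pseudocount of 1, with all 12 libraries, 4 groups of 3 and no block. Fold changes of low genes come out too small on this scale. The interaction was a contrast of the fit. The departure from additivity was the combined group mean minus log2 of the expected TPM + 1, with a delta-method standard error from the moderated spread. Benjamini-Hochberg adjustment was made in each test over all its genes, with a threshold of 0.05, and the code was checked on simulated data.

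For IFN-γ against no treatment, and for the combined group against each single agent, libraries with the same replicate number deviated together (correlations of 0.220 to 0.649, all above 0.1), so the block values are given. What a number stands for is not in the labels, so only the data speak for a pairing. Named genes were a panel of inflammatory and interferon genes, the 8 genes at each end of the interaction and the 5 at each end of the additivity test, each with and without the block, and members of described lists, of which 1 gene is not reported here. The lists, the panel and the comparisons were chosen with earlier results of these data known. Other settings tried were pseudocounts of 0.1 and 0.01, other filters, 2 scalings, no trend, the replicate block and leaving out each library. The pseudocount of 0.01 and the arithmetic means without pseudocount were chosen after seeing the data. Positions are from GENCODE M21 on GRCm38, where all 167 named symbols matched.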

Additional observations from a re-analysis of the deposited data

Results flagged for a closer look

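In 4 genes the change in TPM with CX3CL1 differed with and without IFN-γ by the test of the difference itself, the departure from additivity in limma. The log2 of observed over additive expectation was 1.22 for IL13RA2 (adjusted p = 0.00271), 1.65 for IL6 (adjusted p = 0.0184), 1.77 for CXCL2 (adjusted p = 0.0387) and 1.79 for CXCL3 (adjusted p = 0.0387), higher in 3 of 3 combined libraries than in every single-agent library for each gene. APOO stood out because CX3CL1 libraries lay below untreated libraries, while combined libraries lay above IFN-γ libraries. The IFN-γ libraries also lay below untreated libraries, while combined libraries lay above CX3CL1 libraries, and the interaction was 0.75. The difference of direction was not tested as such, and the interaction did not pass the threshold (limma adjusted p = 0.254).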

How the results depend on the processing

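No interaction passed the threshold in the reported fit or with the other pseudocounts, filters or trend, while 1 did after quantile normalization, 0 to 11 when 1 library was left out and 52 with the replicate block (3 positive and 49 negative, 23 of them in the interferon lists). Among genes described above, the block called the interactions of CXCL1 (adjusted p = 0.0142), ISG15 (0.0142), RELB (0.0456) and THBS1 (0.0137), among others, and the departure of CCL17 from additivity (0.0432). The block could not be taken as a pairing for these tests, because same-numbered libraries correlated at 0.00472 (untreated and CX3CL1, replicate 2) and 0.0324 (untreated and combined, replicate 3), up to 0.649 elsewhere, and in 16 of 18 pairings of a library with another group it correlated best with its own number. Departures from additivity past the threshold numbered 4 in the reported fit, 1 without the filter, 2 after median-ratio scaling, 2 after quantile normalization, 1 with a pseudocount of 0.01, 5 with the replicate block and 1 to 6 without 1 library. Genes changed by CX3CL1 alone numbered 455 with the block and 152 to 268 without 1 library, by IFN-γ alone 1929 and 530 to 1499, by CX3CL1 on top of IFN-γ 95 and 16 to 54 (28 without the filter), and by IFN-γ on top of CX3CL1 1369 and 270 to 668. Without CX3CL1 replicate 2, 1282 genes had an unadjusted p under 0.05 for the interaction, against 273. The IL13RA2 call held in every setting run, and those of IL6, CXCL2 and CXCL3 in 6, 4 and 3 of the 8 settings other than leaving out a library.

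Signs of the interaction turned with a pseudocount of 0.1 for CCL17 (0.0026), CXCL3 (-1.20), CXCL5 (-1.96), IL13RA2 (-1.04), IL6 (-0.28), MMP13 (-0.33) and NLRP3 (-0.34). With 0.01 they turned for CCL17 (0.30), CSF3 (-1.35), CXCL2 (-1.33), CXCL3 (-2.98), CXCL5 (-3.24), IL13RA2 (-1.31), IL1A (-0.94), IL6 (-0.61), MMP13 (-0.39), NLRP3 (-0.56) and NOS2 (-1.25). Median-ratio scaling turned the interaction of CXCL5 (-0.0097) and the departure from additivity of VCAM1 (-0.0034), as did quantile normalization for VCAM1 (-0.0073). Without 1 library, interactions that crossed 0 ran from -0.52 to 0.16 for BCL3, -1.0 to 0.0069 for CCL7, -0.90 to 0.070 for CD274, -0.20 to 0.40 for CXCL5, -0.030 to 0.34 for HMGCS1, -0.045 to 0.16 for IL13RA2, -0.47 to 0.039 for LIF and -0.14 to 0.27 for MMP13. Departures from additivity that crossed 0 ran from -0.55 to 0.36 for C3, -0.18 to 0.096 for CASP1, -0.0061 to 0.52 for CASP4, -0.34 to 0.16 for CCL5, -0.13 to 0.77 for CD274, -0.047 to 0.34 for GBP3, -0.086 to 0.065 for GSDMD, -0.19 to 0.63 for HMGCS1, -0.27 to 0.27 for IFIT1, -0.059 to 0.068 for NFKB1, -0.26 to 0.21 for NFKBIA, -0.029 to 0.16 for PTGS2 and -0.16 to 0.17 for VCAM1. The cause of these changes was not tested. Read depth is unknown, so no counting error can be given for low genes.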
